A study of Schizosaccharomyces pombe with 4 samples.

Results

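Where newly made histone H3 entered chromatin was compared between fission yeast cells lacking the histone deacetylase Clr3 (clr3D) and wild-type cells (WT), both with the boundaries of the silent mating-type region in place. These are 2 of the 4 arrays of the series, chosen by genotype alone, with 1 array for each. The other 2 arrays, IRD2 clr3D and IRD2, carry a change the labels call IR-D2 and do not spell out, and they serve here only to set the same deletion of clr3 beside a second pair. All 4 strains held the plasmid pINV1-H3.2-FLAG, so the controls made tagged H3 too. Cells in early log growth in medium with 8% glucose received 15 mM hydroxyurea (HU), which stalls DNA replication, for 4 h, and then 4% sucrose in place of glucose, with HU still present, for 2 h to switch on FLAG-tagged H3. They were fixed with 1% formaldehyde for 20 min, and chromatin fragments of 400 to 600 bp were pulled down with an anti-FLAG gel.

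Heterochromatin of fission yeast lies at the centromere repeats, the silent mating-type region and the chromosome ends. It carries methylation of histone H3 at lysine 9, is bound by HP1 proteins such as Swi6, and is kept poor in acetylated histones by deacetylases, of which Clr3 is the catalytic subunit of the complex SHREC. Loss of Clr3 is known to raise H3 acetylation and access to DNA in these domains. New H3 enters chromatin behind replication forks and, away from replication, where nucleosomes are exchanged, as at active promoters.

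Each tile was a 60-mer, with 1 tile every 50 bp, and gave a Cy5 signal for FLAG-bound DNA and a Cy3 signal for whole-cell extract DNA from the same culture. The value used is log2 of Cy5 over Cy3 minus the median of the array, so that 0 is the typical tile of that array, and differences are clr3D minus WT. Of 43993 tiles, 43964 were free of outlier flags in both arrays. On the arms, the difference of a tile scattered around that of its neighbours with an SD of 0.080, which leaves out noise that neighbouring tiles share. Over all arm tiles the difference had an SD of 0.17. A difference of at least 0.25 in size is called here, which took in 5.37% of arm tiles as higher and 8.98% as lower. With 1 array per genotype there is no replicate check, no test and no p-value, and each SD given is the spread between tiles of 1 pair of arrays. Cells were measured in bulk, so a difference present in every cell and one present in only some cells cannot be told apart. No tile of clr3 was analysed here, and the deletion itself was not checked.

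The tRNA genes next to the outer repeats of the centromere of chromosome II are shown because they adjoin the repeats at the outer borders. Capitals mark the B box (GTTCGANNC, sought on both strands), the inner promoter element read by RNA polymerase III factors. It was found in 77.2% of 171 nuclear tRNA genes. In the gene on the left it reads on the strand opposite to the annotated one. The sequences are from RefSeq, assembly ASM294v3, on the annotated strand, at chrII:1602347-1602417 (plus strand) and chrII:1643849-1643932 (plus strand).
SPBTRNAASP.05, left border: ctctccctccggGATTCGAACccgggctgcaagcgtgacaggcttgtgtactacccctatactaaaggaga
SPBTRNATYR.03, right border: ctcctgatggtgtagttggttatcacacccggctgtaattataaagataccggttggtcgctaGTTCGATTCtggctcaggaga

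The DNA upstream of the arm gene with the highest difference and of the H3 gene, among the lowest, is shown for the elements that control them. For hsp16, capitals mark a match to the heat-shock element (GAANNTTC, bound by heat-shock factor), which 9.49% of 5112 upstream regions of 250 bases hold. For hht2, capitals mark 2 adjoining matches to the AACCCT box of histone genes, read on the opposite strand, which 8.29% of the regions hold. The hht2 stretch is shortened to the 134 bases between hht2 and its divergent neighbour hhf2. Both are from RefSeq, assembly ASM294v3, at chrII:2660993-2661242 (minus strand) and chrII:1364985-1365118 (plus strand).
hsp16, upstream: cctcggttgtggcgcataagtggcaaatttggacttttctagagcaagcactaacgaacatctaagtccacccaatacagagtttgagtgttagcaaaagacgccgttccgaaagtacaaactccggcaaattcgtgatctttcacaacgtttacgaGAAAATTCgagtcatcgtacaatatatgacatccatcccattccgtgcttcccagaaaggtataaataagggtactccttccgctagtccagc
hht2, upstream: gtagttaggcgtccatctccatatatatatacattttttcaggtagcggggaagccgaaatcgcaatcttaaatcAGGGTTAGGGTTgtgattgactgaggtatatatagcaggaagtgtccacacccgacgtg

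Heterochromatin as a whole stood apart from the chromosome arms. Of 104 windows of 1 kb in the outer repeats, the silent mating-type region and chromosome II's right end, 95 (91.3%) were called higher in clr3D and 0 lower, beside 7.49% of all 2202 windows called higher and 6.4% called lower. On the arms 51 of 1988 windows (2.57%) were called higher and 118 (5.94%) lower. The median window difference was 0.45 in heterochromatin and -0.012 on the arms. No test was possible for either share.

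**Figure D1:**
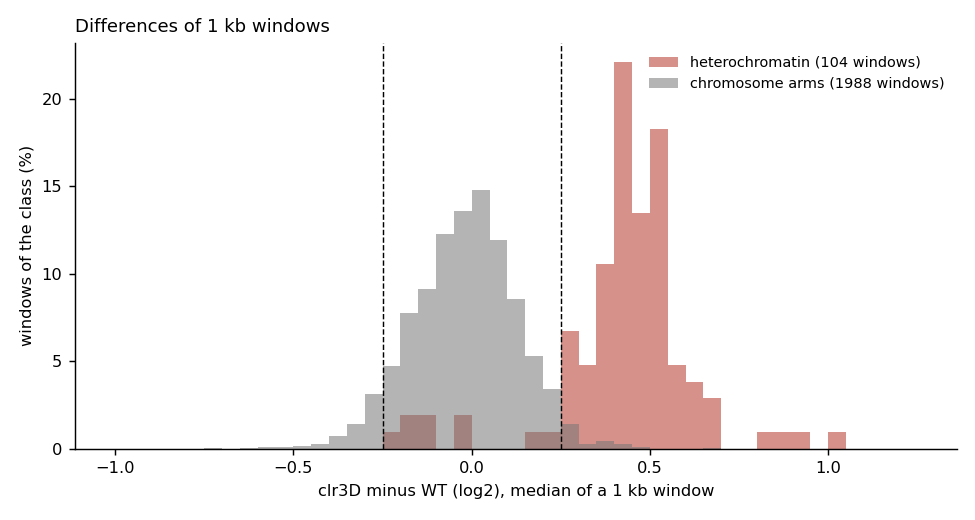
Differences between clr3D and WT (x axis, log2 units) of 1 kb windows, as a percentage of the windows of each class (y axis), for heterochromatin and for the chromosome arms. The dashed lines mark -0.25 and 0.25, and 95 of 104 heterochromatic windows lie at or beyond the upper one, against 51 of 1988 on the arms.

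Each channel was also read alone in the called windows. Windows were called on the ratio of both channels, so the signs of each channel partly follow from that choice. In all 95 higher heterochromatic windows the whole-cell extract signal (Cy3) was lower in clr3D than in WT, with a median of -0.48. The FLAG-bound signal (Cy5) was above 0 in 44 of them, of which 43 lay at chromosome II's right end, 1 in the outer repeats and 0 in the mating-type region. In the 51 higher arm windows Cy5 was above 0 in 50, with a median of 0.17, and Cy3 was below 0 in 46, with a median of -0.12. In the 118 lower arm windows Cy5 was below 0 in 117 (median -0.17) and Cy3 above 0 in 107 (median 0.12). Each channel is centred on its own median, so these values are shares of the array's signal and not amounts of DNA.

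**Figure D2:**
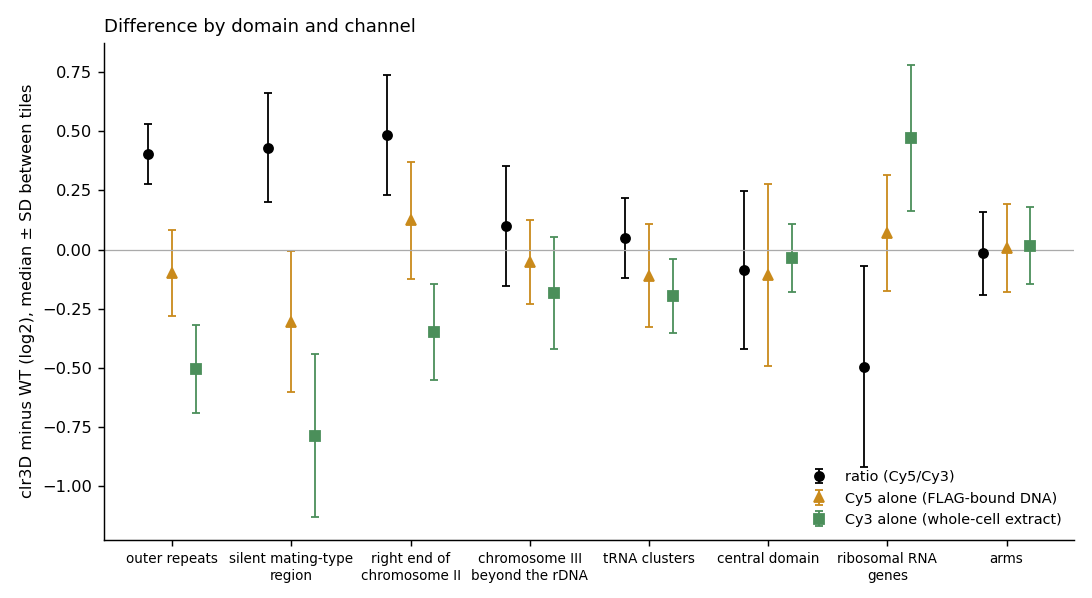
Median differences between clr3D and WT (y axis, log2 units) for the ratio and for each channel alone, in 7 domains and the arms. Points are medians and bars the SD between tiles of the single pair of arrays. In the 3 heterochromatic domains on the left the extract channel lies between -0.79 and -0.35, and Cy5 alone lies above 0 only at the right end of chromosome II.

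The outer repeats of the centromere, the dg and dh elements whose transcripts feed the RNA interference pathway, had a median ratio of 0.49 in clr3D and 0.084 in WT. The difference was 0.40 (SD between tiles 0.13, 589 tiles), with 541 tiles (91.9%) called higher and 0 lower, beside 9.95% of all tiles called higher and 9.44% lower. The left side (1603318 to 1620092 in the files' coordinates) differed by 0.41 and the right side (1631923 to 1645648) by 0.39. Only 6.35% of the left tiles and 8.73% of the right tiles match 1 place, so the sides are not separate readings. The 1 kb bins that lie wholly within the repeats ran from 0.28 to 0.50, with no bin below 0. The highest ratios stood on both sides near the outer ends, at 0.90 in clr3D against 0.41 in WT in the left bin 18.5 kb from the middle of the central domain and at 0.95 in clr3D against 0.44 in WT in the right bin 17.5 kb from it. With loess within each array, the outer repeats differed by 0.14.

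The 2 channels of the outer repeats ran in the same direction. Cy5 was 2.46 in clr3D and 2.60 in WT, and Cy3 was 1.96 in clr3D and 2.49 in WT, both far above the array median. The difference was -0.098 for Cy5 and -0.50 for Cy3. Tiles here matched a median of 5 places of the reference, so they read further copies of the repeats too. The 44 tiles that match 1 place differed by 0.31 in the ratio, with 61.4% of them called higher. Their Cy3 difference was -0.48 and their Cy5 difference -0.16. The Cy3 difference moved little with base composition, from -0.48 in the 148 tiles poorest in GC to -0.52 in the 148 richest.

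**Figure D3:**
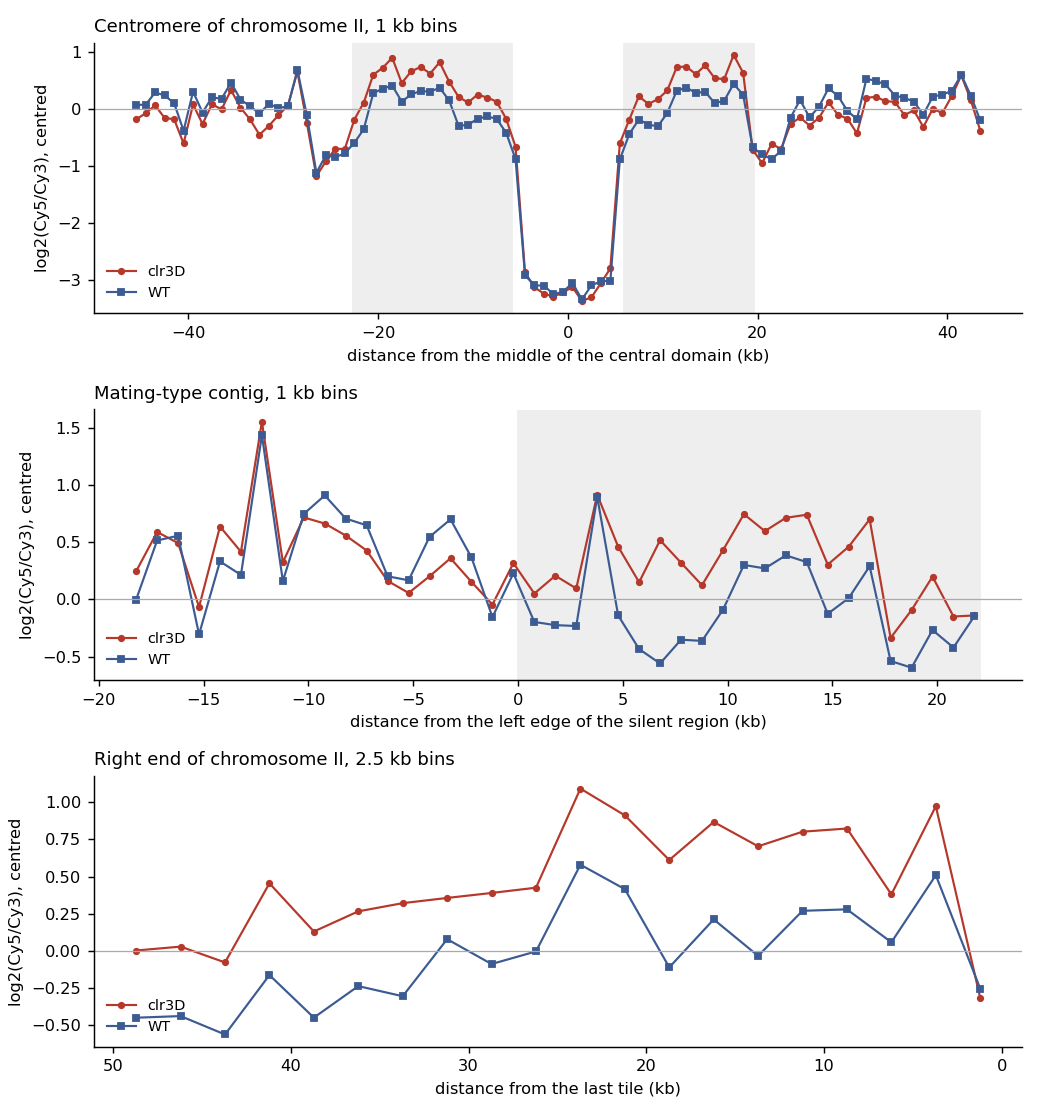
Centred log2 ratio (y axis) in clr3D and WT along the centromere of chromosome II, the mating-type contig and the right end of chromosome II, against distance in kb (x axis). Points are medians of 1 kb bins, and of 2.5 kb bins at the right end, and grey areas are the outer repeats and the silent region. The clr3D line lies above the WT line in nearly all bins of the grey areas and of the right end, and the lines meet in the central domain, at the right edge of the silent region and in the outermost bin.

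Across the outer borders the ratio was followed into the tRNA clusters. On the left, the 1 kb of repeat next to the cluster stood at -0.056 in clr3D and -0.56 in WT (difference 0.52, SD 0.076, 20 of 20 tiles called higher). The cluster itself stood at -0.80 in clr3D and -0.85 in WT (difference 0.027), and the 1 kb beyond it differed by -0.17 with 0 of 20 tiles called. With 500 bp on either side, SPBTRNAASP.05, shown above, differed by 0.33 and SPBTRNAARG.06 by 0.26, the 2 of 41 tRNA genes called higher (4.88%), with 0 called lower. These flanks reach into the repeats. The 10 tiles of SPBTRNAASP.05 in the repeats stood at -0.073 in clr3D and -0.63 in WT (difference 0.55), and its 11 tiles in the cluster at -0.67 in clr3D and -0.80 in WT (difference 0.13, 1 called higher). The 15 cluster tiles of SPBTRNAARG.06 also differed by 0.13, with 1 called higher.

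On the right the change lay further in. The 1 kb inside the cluster differed by 0.062 (3 of 20 tiles called higher), while the bin 18.5 kb from the middle still differed by 0.35. The cluster stood at -0.80 in clr3D and -0.81 in WT, and SPBTRNATYR.03, shown above, stood at -1.07 in clr3D and -1.01 in WT. Cy5 differed by -0.34 and Cy3 by -0.44 in that 1 kb, so both channels were lower and the ratio moved little. In the second pair both clusters differed by more, at 0.48 on the left and 0.47 on the right.

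Beyond the clusters, genes within 20 kb of the clusters had lower ratios in clr3D. On the left all 9 genes named there had negative differences, from -0.12 at cwf7 to -0.30 at hrd3, whose product works in degradation at the endoplasmic reticulum. Over all 874 arm genes 52.6% were below 0. Low values also lay elsewhere on the arms, with a median tile difference of -0.24 from 1250001 to 1275000. The gene next to the cluster, rpb1, which encodes the largest subunit of RNA polymerase II, stood at -0.06 in clr3D and 0.14 in WT. On the right yox1, a repressor of cell cycle genes, stood at -0.06 in clr3D and 0.23 in WT, and rps402, a ribosomal protein gene, at 0.10 in clr3D and 0.35 in WT. In the second pair rpb1 differed by 0.11, yox1 by -0.06 and rps402 by 0.07.

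Inside the centromere the central domain, where the H3 variant Cnp1 replaces H3, had the lowest ratios of any domain in both arrays, at -3.18 in clr3D and -3.10 in WT. The difference was -0.086 (SD 0.33, 197 tiles), with 17.8% of tiles called higher and 26.9% lower. Its edges and its middle ran opposite ways: the outermost bin on each side differed by 0.12, and the bins between them by -0.16 to -0.07. The inner tRNA clusters that flank it differed by 0.17 on the left and 0.16 on the right.

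The silent mating-type region lies on a separate contig of the array, which also holds the flanks and the expressed cassette mat1. Over the silent region (18718 to 40778 of the contig) the median ratio was 0.32 in clr3D and -0.16 in WT. The difference was 0.43 (SD 0.23, 439 tiles, 84.5% of them called higher and 0.456% lower). Contig tiles were not counted for copies. Of the chromosome II tiles of this region, the 91 that match 1 place differed by 0.21, under the threshold. Both channels were lower in clr3D, Cy5 at 0.22 against 0.58 in WT and Cy3 at -0.088 against 0.79 in WT. The extract difference of -0.79 was the largest of the 3 heterochromatic domains.

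Within the region the difference peaked between the left cassette and the centromere-like repeat. From 23 to 29 kb of the contig the ratio was 0.32 in clr3D and -0.34 in WT (difference 0.62, 120 tiles), and the bin at 25 kb reached 1.05, with 0.52 in clr3D and -0.56 in WT. The extract signal of that stretch differed by -1.06. From 29 to 33 kb, where the extract profile followed reversed tiles of the centromere repeats (r = 0.68 over 80 tiles), the ratio was 0.70 in clr3D and 0.31 in WT, and Cy3 differed by -0.52, close to the value of the outer repeats. The stretches on either side differed by 0.40 on the left and 0.38 on the right.

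Toward the edges the bins differed between the sides. The bin at 19.5 kb, inside on the left, stood at 0.052 in clr3D and -0.20 in WT (difference 0.28). The last bin inside on the right stood at -0.14 in clr3D and -0.15 in WT. On that side, emc3, the first gene outside, stood at -0.02 in clr3D and 0.01 in WT on its chromosome II tiles. Its Cy5 differed by -0.25 and its Cy3 by -0.22. On the left, rpp202, a ribosomal protein gene, stood at 0.34 in clr3D and 0.30 in WT, though both channels were lower there, Cy5 by -0.25 and Cy3 by -0.30. SPBC23G7.13C, annotated as a urea transporter and lying further out, stood at 0.19 in clr3D and 0.50 in WT (difference -0.31). The contig from 6 to 16 kb, between mat1 and the silent region, differed by -0.14, with Cy5 at -0.26 and Cy3 at -0.15.

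The mating-type cassettes on chromosome II differed alike in the silent and the expressed copy. mat3-Mc, the silent copy of an M mating-type gene, stood at 0.72 in clr3D and 0.33 in WT (difference 0.39, SD 0.08, 11 tiles). mat1-Mc, the expressed copy, stood at 0.74 in clr3D and 0.35 in WT (difference 0.39). Tiles of these genes match 2 places, so each reads both copies. All 4 measured cassette genes were called higher (3.76% of all 905 genes were), from 0.36 to 0.43, and with the Cy5 channel alone mat1-Mc differed by -0.21.

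At the right end of chromosome II the FLAG-bound signal was higher in clr3D and the extract signal lower. Over the outermost 49960 bp (4491601 to 4541560) the median was 0.47 in clr3D and -0.019 in WT, a difference of 0.48 (SD 0.25, 998 tiles), with 86.5% of tiles called higher and 2.3% lower. Cy5 was 1.33 in clr3D and 1.17 in WT, and Cy3 was 0.86 in clr3D and 1.25 in WT. Tiles that match 1 place differed by 0.35 and tiles that match more places by 0.50.

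The 16 genes measured at this end all had positive differences, with a median of 0.50, and 15 were called higher (3.76% of all 905 genes were called higher and 4.97% lower). gal1, the galactokinase gene, stood at 0.46 in clr3D and -0.02 in WT. SPBPB2B2.16C, annotated as a membrane transporter, stood at 0.55 in clr3D and -0.06 in WT. The highest difference was at the pseudogene SPBCPT2R1.10, at 0.91 in clr3D and 0.24 in WT (0.67, SD 0.16), and the lowest at SPBCPT2R1.02, at 0.58 in clr3D and 0.41 in WT (0.17). In tlh2, which encodes a RecQ-type helicase of the chromosome end, the ratio was 0.73 in clr3D and 0.21 in WT, and 120 of 120 tiles were above 0. With loess tlh2 differed by 0.29, SPBCPT2R1.07C by 0.29 in place of 0.54, SPBCPT2R1.06C by 0.15 in place of 0.34, and SPBCPT2R1.02 by 0.0059.

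Past tlh2 the tiles went both ways. The 741 tiles on its centromere side differed by 0.50, and 100% were above 0, whereas the 137 tiles beyond it differed by -0.024 (SD 0.29), at 0.089 in clr3D and 0.19 in WT, with 31 called higher and 23 lower. One 1 kb window there (4537001 to 4538000) was called higher, at 1.26 in clr3D and 0.79 in WT. Of these outer tiles 78.1% match 1 place, against 12.4% on the centromere side. Their Cy5 differed by -0.21 and their Cy3 by -0.23. In the second pair the same outer tiles differed by 0.38, at -0.24 in IRD2 clr3D and -0.58 in IRD2.

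Next to the ribosomal DNA, the measured stretch at chromosome III's left end differed by 0.10, at 0.13 in clr3D and -0.035 in WT, with 26.1% of 537 tiles called higher and 5.96% lower. Cy5 differed by -0.052 and Cy3 by -0.18. The 1 kb bordering the ribosomal DNA was called lower, by -0.36. The 2.5 kb bin at 26.25 kb differed by 0.55, at 0.39 in clr3D and -0.19 in WT, and the next bins by 0.37, 0.18 and 0.16. From 41.25 kb on they lay between -0.14 and 0.10. SPCP20C8.01C, of unknown function, stood at 0.43 in clr3D and 0.14 in WT, and nic1, a nickel transporter gene further in, at -0.10 in clr3D and -0.08 in WT.

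The ribosomal RNA genes, which are present in many copies, had lower ratios, at -1.21 in clr3D and -0.60 in WT (difference -0.49, SD 0.43, 460 tiles, with 19.3% called higher and 67.0% lower). Their Cy5 differed by 0.071 and their Cy3 by 0.47, a larger share of the extract signal in clr3D. The repeat was not uniform: the bin at 3.75 kb differed by 0.36, at 1.25 in clr3D and 0.90 in WT, and the bin at 8.75 kb by -0.63, at -1.38 in clr3D and -0.70 in WT. In the second pair the domain differed by -1.20.

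On the arms the differences were small. In 79 bins of 25 kb the medians ran from -0.25 to 0.16. Of 24 bins on the left arm 19 were below 0, and of 55 bins on the right arm 26 were. Of the 18 bins in the outer part of the tiled right arm 14 were above 0. The 3997 arm tiles from 1497661 to 1750020, around the centromere, differed by -0.12 (23.4% above 0), with Cy5 at -0.068 and Cy3 at 0.047. The 8991 tiles from 2600011 to 3049820 differed by 0.065, with Cy5 at 0.077 and Cy3 at 0.001. Across these 79 bins the differences of the 2 pairs had r = 0.70, given as a description, since neighbouring bins are not independent and all arrays share tiles and slide.

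**Figure D4:**
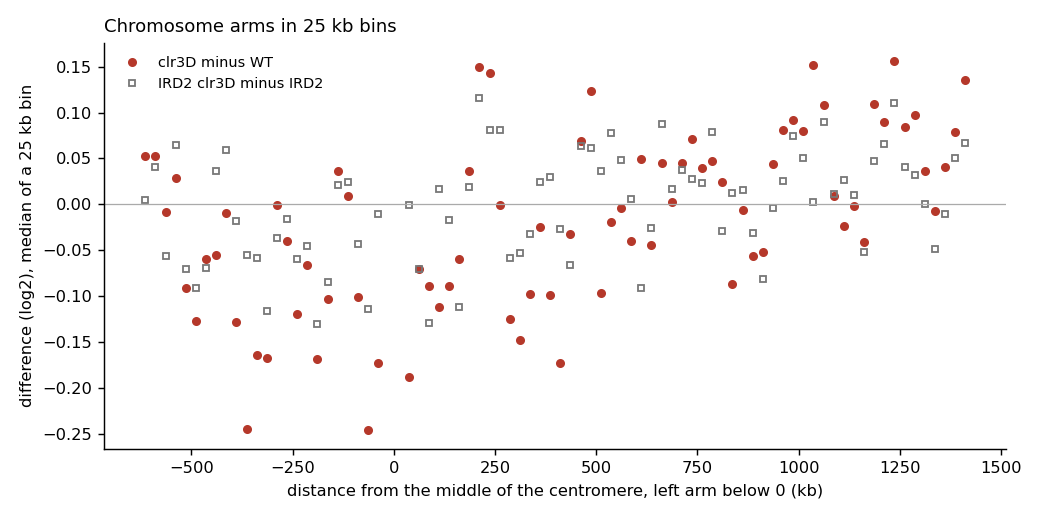
Median differences of 25 kb bins along the arms of chromosome II (y axis, log2 units) against distance from the middle of the centromere (x axis, kb), for clr3D minus WT and for IRD2 clr3D minus IRD2. The clr3D minus WT bins run from -0.25 near the centromere and on the left arm to 0.16.

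The 51 higher windows formed 30 runs, the longest of 5 windows over pof2 and mot1, an F-box gene and a regulator of the TATA-binding protein. The 118 lower windows formed 78 runs, the longest of 4. In the second pair 7 of the 51 were also at or above 0.25 and 39 were above 0, while 6 of the 118 were at or below -0.25 and 82 were below 0. Of all 1988 arm windows 85 were called higher in that pair and 56 lower. Over all its windows, heterochromatin and ribosomal DNA included, 7.77% were called higher and 3.68% lower.

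Along arm genes the differences were small at every position. Tiles 200 to 100 bp upstream of a gene start had a median of -0.088 in clr3D and -0.072 in WT, and differed by -0.029. Tiles 500 to 600 bp into the gene differed by -0.025. By arrangement, tiles between divergent genes differed by -0.055 (36.0% above 0), between tandem genes by -0.027, in gene bodies by -0.009 and between convergent genes by 0.016.

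Arm genes were also ranked by their ratio. The 291 genes with the lowest WT ratio differed by 0.032 and the 292 with the highest by -0.043, but WT itself enters the difference. Ranked by IRD2, an array outside the comparison, the lowest 291 differed by -0.032 and the highest 292 by 0.025. The order turned round with the array used to rank.

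Among 874 arm genes, 16 were called higher and 42 lower, beside 34 (3.76%) and 45 (4.97%) of all 905 genes. The highest arm gene was hsp16, a small heat-shock protein gene (2661939 to 2662792 in the files' coordinates, unlike the RefSeq positions of its upstream DNA above). It stood at 0.68 in clr3D and -0.02 in WT (difference 0.70, SD 0.13, 18 of 18 tiles above 0). Both channels were higher here, Cy5 at -1.63 in clr3D against -2.88 in WT and Cy3 at -2.34 in clr3D against -2.88 in WT, which are low levels for the array. With normexp on the median signals the difference was 0.32. In the second pair it differed by 1.63, at -1.05 in IRD2 clr3D and -2.67 in IRD2. The 85 arm genes with a match to the heat-shock element upstream had a median of 0.00084 and the 787 without one -0.010.

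Among arm genes with at least 5 tiles, the next highest was mam1, the exporter of the mating pheromone M-factor, which stood at 0.35 in clr3D and -0.05 in WT (difference 0.40, 81 of 81 tiles above 0), with Cy5 0.33 higher and no difference in the second pair (0.00). tdh1, a glyceraldehyde-3-phosphate dehydrogenase gene, stood at 0.49 in clr3D and 0.16 in WT, with a wide spread between tiles (SD 0.37). med15, a Mediator subunit gene, stood at 0.29 in clr3D and -0.02 in WT. pat1, the kinase that holds back meiosis, stood at 0.66 in clr3D and 0.39 in WT.

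Further members of the 15 highest follow. lid2, a histone demethylase gene, stood at 0.13 in clr3D and -0.13 in WT, and cut14, a condensin subunit gene, at 0.07 in clr3D and -0.19 in WT. sus1, of the SAGA complex, stood at -0.0046 in clr3D and -0.26 in WT, sen34, of the tRNA splicing endonuclease, at 0.26 in clr3D and -0.03 in WT, and smf1, of the spliceosome core, at 0.12 in clr3D and -0.13 in WT. The other members of the 15 were mat1-Mc, naa30, SPBC337.02C, SPBC28E12.02 and nvj2, with differences from 0.25 to 0.39. Cy5 was above 0 in 14 of the 15, Cy3 below 0 in 13, and the second pair above 0 in 11 and at or above 0.25 in 2, beside 3.54% of all genes called higher in that pair and 1.66% lower. The genes were ranked by the ratio, so the signs of the channels partly follow from the ranking.

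The lowest arm gene was fmo1, a flavin-dependent monooxygenase gene (1913687 to 1915531), at 0.15 in clr3D and 0.78 in WT (difference -0.62, SD 0.15, 0 of 37 tiles above 0). sua1, the sulfate adenylyltransferase gene, stood at 0.05 in clr3D and 0.57 in WT, and hmt2, a sulfide-quinone oxidoreductase gene, at 0.46 in clr3D and 0.80 in WT. isp4, an oligopeptide transporter gene, stood at 0.33 in clr3D and 0.72 in WT. For these 4 genes the second pair differed by -0.10, -0.05, -0.05 and -0.05.

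The divergent pair hht2 and hhf2, which encodes H3 and H4, held high ratios in both arrays and lower ones in clr3D. hht2 stood at 1.05 in clr3D and 1.5 in WT (difference -0.45, SD 0.18), and hhf2 at 0.37 in clr3D and 0.79 in WT (-0.43, SD 0.11). The differences were -0.16 and -0.23 for Cy5 and 0.28 and 0.19 for Cy3. By its name the plasmid carries an H3.2 gene, so plasmid DNA can bind the hht2 tiles, and its part was not tested. The 79 arm genes with an AACCCT match upstream had a median of -0.010 and the 793 without one -0.008.

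Further members of the 15 lowest follow. mis15, a kinetochore gene, stood at -0.04 in clr3D and 0.33 in WT, alp4, of the gamma-tubulin complex, at 0.16 in clr3D and 0.49 in WT, and rem1, a meiotic cyclin gene, at -0.05 in clr3D and 0.28 in WT. trz2, which trims tRNA ends, stood at -0.46 in clr3D and -0.08 in WT, and ips1, a tRNA modification gene, at -0.16 in clr3D and 0.16 in WT. The remaining members were dbl7, SPBC83.12, SPBC23G7.13C and the pseudogene SPBC31A8.02. Cy5 was below 0 in 15 of the 15, Cy3 above 0 in 14, and the second pair below 0 in 13, with 0 called lower and 1 called higher in that pair. The 15 had a median of 0.052 in clr3D and 0.49 in WT. Ranking by the difference itself favours genes high in WT, and the channel signs partly follow from it too.

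**Figure D5:**
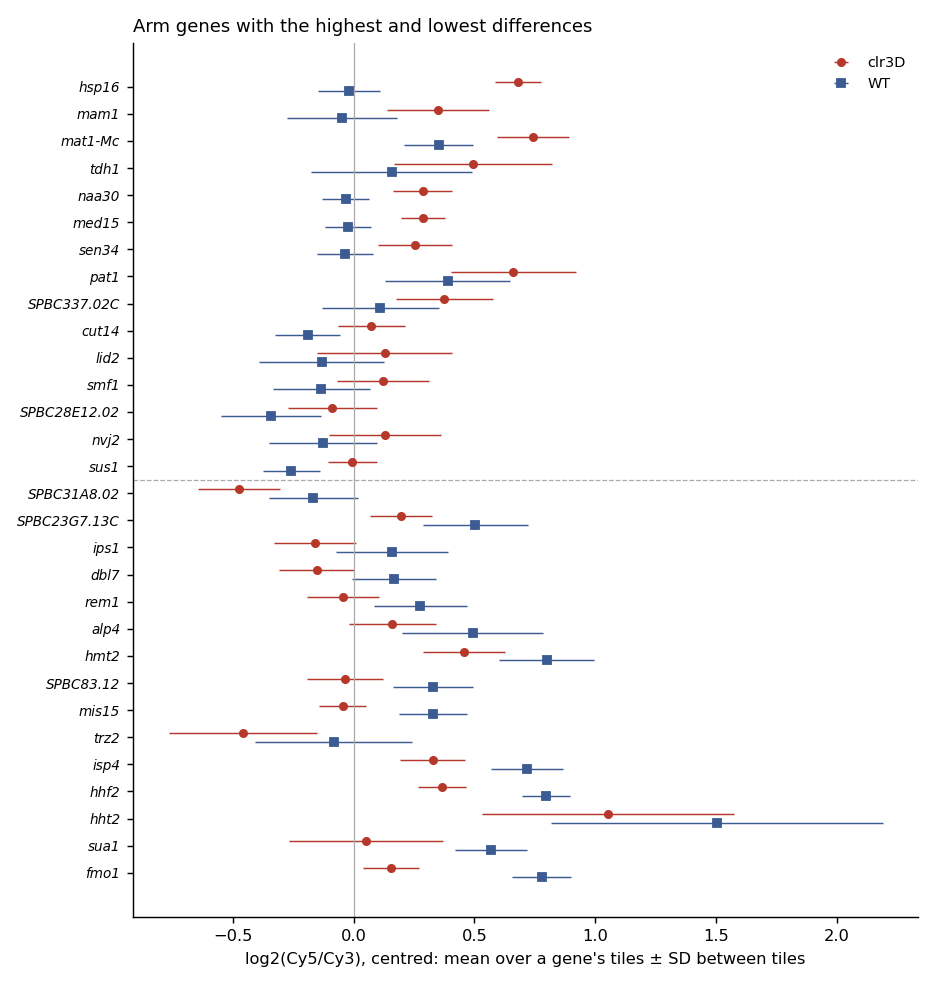
Centred log2 ratios (x axis) of the 15 arm genes with the highest differences (top) and the 15 with the lowest (bottom), in clr3D and WT. Points are means over a gene's tiles and bars the SD between tiles. hsp16 leads the top with 0.68 in clr3D and -0.02 in WT, and fmo1 ends the bottom with 0.15 in clr3D and 0.78 in WT.

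Among tiles of chromosome III outside its left end, nmt1, a thiamine synthesis gene repressed by thiamine, stood at 0.47 in clr3D and 1.19 in WT (difference -0.71, SD 0.10, 0 of 25 tiles above 0), with Cy5 at -0.29 and Cy3 at 0.42. inv1, the invertase gene turned on by loss of glucose, stood at 0.68 in clr3D and 1.04 in WT (difference -0.36, 53 tiles), with Cy5 at -0.16 and Cy3 at 0.19. The plasmid carries the inv1 promoter by its name, and its part was not tested. Of the sugar-use list only inv1 and gal1 were measured.

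The median of all 905 genes was -0.0051, with 3.76% called higher and 4.97% lower. The 4 measured glycolysis genes had a median of 0.10, with tdh1 the only one called and pfk1, the phosphofructokinase gene, at 0.38 in clr3D and 0.24 in WT. eno101, the enolase gene, stood at 0.18 in clr3D and 0.12 in WT, although Cy5 was higher by 0.34 and Cy3 by 0.28. The 4 heat-shock and chaperone genes had a median of 0.036, with hsp16 the only one called. The 3 stress genes had a median of -0.036 and the 3 meiosis genes of 0.036, with 0 called in either list. In the second pair the medians were 0.26 for glycolysis, 0.36 for heat shock and chaperones, -0.025 for stress and 0.00095 for meiosis. pht1, which encodes the variant H2A.Z, stood at -0.23 in clr3D and -0.48 in WT (0.24, just under the threshold), against the negative values of the other 2 core histone genes.

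Of 6 replication genes 5 were below 0, with a median of -0.11 and 0 called. The lowest, psf2 of the GINS complex, stood at 0.30 in clr3D and 0.51 in WT, and cdc18, the replication licensing gene, at 0.38 in clr3D and 0.57 in WT. Of 25 ribosomal protein genes 20 were below 0, with a median of -0.083 and 2 called lower, rpl26 at -0.28 and rps402 at -0.25. Over all genes 51.5% were below 0 and 4.97% called lower, and in the second pair the list had a median of 0.098. Their Cy5 median was 0.013 and their Cy3 median 0.088. The 2 measured heterochromatin genes, clr1 of SHREC and tas3 of the RITS complex, differed by 0.14 and 0.05.

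The retrotransposon Tf2-9 stood at 0.66 in clr3D and 0.55 in WT and Tf2-10 at 0.66 in clr3D and 0.56 in WT, tiles that read other copies too. The 14 tRNA genes on the arms had a median difference of 0.012, with 7 above 0 and 7 below, and the 27 at the centromere one of 0.070.

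The second pair, which shares no sample with the first, gave the same deletion in cells that carry IR-D2. The outer repeats differed by 0.37, at 0.35 in IRD2 clr3D and -0.003 in IRD2, and chromosome II's right end by 0.29, at 0.36 in IRD2 clr3D and 0.088 in IRD2. The silent mating-type region differed by 0.20, at 0.36 in IRD2 clr3D and 0.16 in IRD2, beside 0.43 for clr3D minus WT. Of the 95 heterochromatic windows called higher, 58 were called higher in this pair too and 90 were above 0. Of all 2202 windows, 7.77% were called higher in this pair. The domains were uneven: 16 of 17 called windows repeated in the left outer repeats and 12 of 13 in the right. In the mating-type region 8 of 20 did, and at the right end 22 of 45. Whether the 2 pairs differ could not be tested with 1 array per genotype.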

How the data were processed

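DNA bound to FLAG-tagged H3 (Cy5) and whole-cell extract DNA (Cy3) were amplified by random-primed PCR and hybridised together to 1 Agilent tiling array per genotype, per the labels. Spot brightness was deposited as linear intensity for both dyes, extracted with version 12.0.3.1 of Agilent Feature Extraction according to the headers, with background subtracted and dyes normalised in the processed signals; all arrays were on 1 slide and in 1 scan. The deposited series matrix holds the same linear ratio of processed signals, which was checked and not used otherwise.

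The value was log2 of the deposited processed Cy5 over Cy3 signals minus the array median, without loess, after leaving out control spots and outlier spots (21 in clr3D, 9 in WT, 11 in IRD2 clr3D, 20 in IRD2). No spot was saturated, and 43811 to 43879 tiles per array were well above background in both channels. Median processed signals were 1093 in Cy5 and 1146 in Cy3 for clr3D, and 1084 in Cy5 and 1114 in Cy3 for WT. The number of arrays limits the precision.

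Domain and window values are medians over tiles, with at least 8 tiles per window. Gene values are means over at least 3 tiles, with 500 bp on either side of tRNA genes. Named were the 15 highest and 15 lowest arm genes with at least 5 tiles, genes in or within 20 kb of the domains, and members of the lists of core histones, glycolysis, sugar use, heat shock, thiamine, stress, replication, meiosis, heterochromatin machinery, ribosomal protein genes, tRNA genes, Tf2 elements, mating-type cassettes and the right end. The genes, lists and domains were chosen with earlier results of these data known. The headers name no genome build, and all positions except those of the shown sequences are in the files' coordinates. Gene names rest on a placement that takes each assembly gap of the reference as 900 bp longer, and in 29 of 29 windows the extract signal followed GC content best at that placement (r from 0.129 to 0.630). The summaries were tested on simulated data, with noise drawn separately for each tile and none shared by neighbours. Loess and normexp used limma 3.58.1 in R 4.3.3, and the rest Python 3.11.15 with numpy 2.4.6 and pandas 2.3.3.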

Additional observations from a re-analysis of the deposited data

Results flagged for a closer look

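Some results ran opposite ways in the 2 pairs. The tiles of the mating-type region on chromosome II differed by 0.36 in clr3D minus WT and by -0.015 in IRD2 clr3D minus IRD2, where the second value is close to 0. The pseudogene SPBC31A8.02, with 7 tiles, differed by -0.31 in clr3D minus WT and by 0.53 in IRD2 clr3D minus IRD2. Of the 34 genes called higher in clr3D, 4 had the other sign in the second pair (naa30, sus1, sen34 and smf1), 0 of them by 0.125 or more. Of the 45 called lower, 9 had the other sign, 4 of them by 0.125 or more in the second pair (SPBC31A8.02, wat1, mug124 and tim18). Among these 9, nmt1 differed by -0.71 in clr3D minus WT and by 0.04 in IRD2 clr3D minus IRD2, and SPBC23G7.13C by -0.31 in clr3D minus WT and by 0.03 in IRD2 clr3D minus IRD2. None of these differences between the pairs was tested, since each genotype has 1 array.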

How the results depend on the processing

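No paired analysis was possible because each genotype has 1 array and no test was made. With the Cy5 channel alone, the outer repeats differed by -0.098, the silent mating-type region by -0.30 and the ribosomal RNA genes by 0.071, each opposite to the ratio, as were the uncalled tRNA clusters (-0.11) and left end of chromosome III (-0.052), and chromosome II's right end by 0.12. The main setting called 165 of 2202 windows higher and 141 lower, and 34 of 905 genes higher and 45 lower. Cy5 alone also turned SPBCPT2R1.05C (-0.092) and mat1-Mc (-0.21), and called 52 windows higher and 12 genes higher and 17 lower. Loess gave 0.14 for the outer repeats. Of 51 named genes, loess moved 11 by more than their spread between tiles and normexp moved 35. Cy5 alone moved 33, besides the 2 it turned. With normexp, and likewise with Cy5 alone, 16 of the 51 were unmoved. Normexp turned the uncalled central domain to 0.072. Normexp, run on median signals, called 244 windows lower, and 60 genes higher and 95 lower. Tiles that match 1 place gave 0.21 for the mating-type region (chromosome II tiles), and 76 windows and 22 genes higher. A threshold of 0.5 gave 38 windows higher and 21 lower, and 10 genes higher and 3 lower, as a stricter threshold must leave fewer. Windows of 2 kb, which are fewer, gave 73 higher and 58 lower. For the other shifts the cause was not tested. Centring on the arms, scaling to 1 median absolute deviation, raw median signals, well-detected tiles alone and keeping outlier spots moved none of the domain values or counts beyond the spread between tiles or 1.5 times. The alternative over a longer stretch of the chromosome end was not run, since the tiles end sooner.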
